A study of Homo sapiens with 6 samples.

Results

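The mucin genes analysed here were 10 protein-coding genes, MUC1, MUC2, MUC3A, MUC4, MUC5AC, MUC5B, MUC6, MUC13, MUC16 and MUC20, taken by symbol from a table of 58735 genes of which 19951 were protein-coding. All 10 were found. RNA sequencing was performed on NCI-N87 cells, an established human gastric carcinoma line, in 2 groups of 3 libraries. The shCtrl cells (shNC in the labels) carried the empty lentiviral vector pSIH-H1-puro, and the shS1#1 cells (shScamp1 in the labels) carried the same vector with a short hairpin RNA against SCAMP1, a membrane protein of the vesicle recycling machinery. Both groups were exposed to virus for 24 h, selected with puromycin at 2 μg/ml as stable populations, and harvested at about 80% confluence. A single hairpin was sequenced, its control carried no hairpin, and nothing states whether the 3 libraries of a group came from separate infections, so that p-values describe the spread between these libraries only.

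Mucins are large glycoproteins whose central domains are rich in serine and threonine and are densely decorated with O-linked sugars. The gel-forming mucins are packed into granules, secreted and assembled into the mucus layer, and in the stomach MUC5AC marks the surface mucous cells and MUC6 the gland mucous cells, whereas MUC2 is the mucin of intestinal goblet cells. The membrane-anchored mucins stay on the apical surface, where they form part of the glycocalyx and take part in signaling. In the classification used here, MUC2, MUC5AC, MUC5B and MUC6 were the 4 gel-forming members, and MUC1, MUC3A, MUC4, MUC13, MUC16 and MUC20 the 6 membrane members.

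The O-glycosylated domains are encoded by tandem repeats, and the repeats of 4 members are shown because they carry the sugar acceptors and because reads inside them match several copies. Each line gives 1 in-frame unit, the commonest in the longest annotated transcript (GENCODE 29), with the codons for serine and threonine in capitals.
MUC1: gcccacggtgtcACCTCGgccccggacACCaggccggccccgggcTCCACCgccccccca
MUC4: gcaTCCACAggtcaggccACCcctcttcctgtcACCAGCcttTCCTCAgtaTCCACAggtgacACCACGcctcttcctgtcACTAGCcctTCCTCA
MUC5AC: gctcctACAACCAGCACAACCTCT
MUC20: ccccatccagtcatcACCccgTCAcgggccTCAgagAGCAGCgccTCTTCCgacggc
The MUC1 unit of 60 bases had 19 exact copies, and 5 of its 20 codons encoded serine or threonine. In the MUC4 unit of 96 bases, with 7 exact copies, it was 15 of 32 codons. The short MUC5AC unit of 24 bases had 15 exact copies and 6 such codons of 8, and the MUC20 unit of 57 bases had 10 exact copies and 7 such codons of 19. Among all 50-base windows of the longest transcript, the share that occurred more than once in it was 42.4% for MUC1, 29.2% for MUC5B, 28.3% for MUC4, 21.5% for MUC5AC, 21.4% for MUC2 and 19.7% for MUC20, against 1.86% for MUC3A, 1.76% for MUC6, 1.07% for MUC16 and 0 for MUC13. Only exact matches count in these shares, so copies that differ in sequence can be missed. MUC2 also had a repeat, with 9 exact copies of a 69-base unit, but no in-frame unit was obtained for it. How reads that match several copies were counted is not given in the sources used here.

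Each library held between 14311769 and 15988700 reads on genes. SCAMP1 itself measured 12.6, 12.1 and 11.5 FPKM (fragments scaled to exon length and library size) in shCtrl cells, against 1.70, 1.37 and 1.99 FPKM in shS1#1 cells, a level 86.0% lower (log2 fold change -2.78, SE 0.14, limma adjusted p = 0.000248). The epithelial markers EPCAM, CDH1, KRT8, KRT18 and KRT19 were all above a mean of 0.5 FPKM, summing to 4221 to 4434 FPKM in shCtrl and 7727 to 8494 FPKM in shS1#1 libraries. Most of the larger sum lay in the keratins KRT8 (means of 1534 and 3002 FPKM in shCtrl and shS1#1 cells), KRT18 (875 and 2000) and KRT19 (1688 and 2844). CDH1 was at 55.1 and 75.7 FPKM, and EPCAM, at 153 and 148 FPKM, was not higher. Of the 4 markers of gastric surface mucous cells none reached a mean of 0.5 FPKM over the 6 libraries, and the defining partners TFF1 and GKN2 were at 0 in every library. Of the gland, intestinal and enteroendocrine markers, only AQP5 (means of 3.91 and 16.2 FPKM in shCtrl and shS1#1 cells), CDX2 (22.6 and 19.4), VIL1 (5.32 and 1.82) and GAST (13.8 and 21.2) reached that mean. Immune markers (PTPRC, CD3E, CD68, MS4A1) summed to at most 0.0628 FPKM in any library. Of the parietal and chief, endothelial and fibroblast markers, only COL1A1 (means of 0.617 and 0.670 FPKM) reached a mean of 0.5 FPKM. The endothelial marker VWF was at 0.172 FPKM in shCtrl and 0.444 FPKM in shS1#1 cells. The library shS1#1 replicate 2 stood apart from the other two of its group, with 9.21% of reads from mitochondrial genes against 6.09 to 6.78% in the other 5 libraries and with higher values for long genes. Its median log2 deviation from the other shS1#1 libraries was 0.41 over 259 genes with more than 16 kb of exon sequence and -0.34 over 1441 genes with 1 to 2 kb, whereas the shCtrl libraries stayed between -0.023 and 0.033 in every length class. MUC16, MUC4, MUC5B and MUC5AC belong to the longest class, and their values are therefore given with and without that library.

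**Figure D1:**
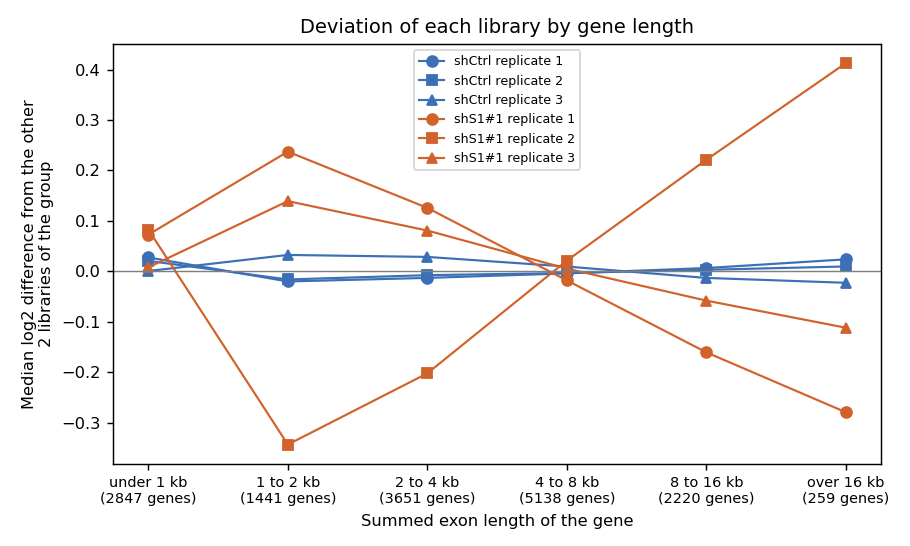
Median log2 difference of each library from the other libraries of its group (y axis) for genes classed by summed exon length (x axis, number of tested genes in parentheses), with shCtrl in blue and shS1#1 in orange. The shS1#1 replicate 2 line runs from -0.34 at 1 to 2 kb to 0.41 above 16 kb, while the 3 shCtrl lines lie close to 0.

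Among the 10 mucin genes, MUC20 and MUC16 were higher in shS1#1 cells, MUC13 was lower, and MUC1, MUC3A, MUC4 and MUC5B did not pass the test (limma on log2(FPKM + 0.1), adjusted p under 0.05 over 15556 genes). The other 3 members, MUC2, MUC5AC and MUC6, had a mean below 0.5 FPKM and were not tested. Thus 2 of 7 tested members were higher, both by more than 2-fold, whereas 8.82% of all tested genes were higher and 2.42% were higher by more than 2-fold. Of these 2, MUC16 had a shCtrl mean of 0.337 FPKM and entered the test only through its shS1#1 libraries. Its call was also lost when any single shCtrl library was left out. The members were chosen with earlier results of these data known, so these counts are a description and not a test. In the other direction 1 of 7 was lower, beside 5.17% of all genes. With so few genes, 1 lower call is near that share. The FPKM ranges of the groups did not overlap for 8 of the 10 members, or 5 of the 7 tested, where 41.4% of all tested genes had ranges that did not overlap. The median log2 fold change of the 7 tested members was 0.04, close to that of all tested genes (-0.02, with 47.6% above 0). In this bulk RNA a change in the number of cells that express a gene and a change in its RNA per cell cannot be told apart.

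**Figure D2:**
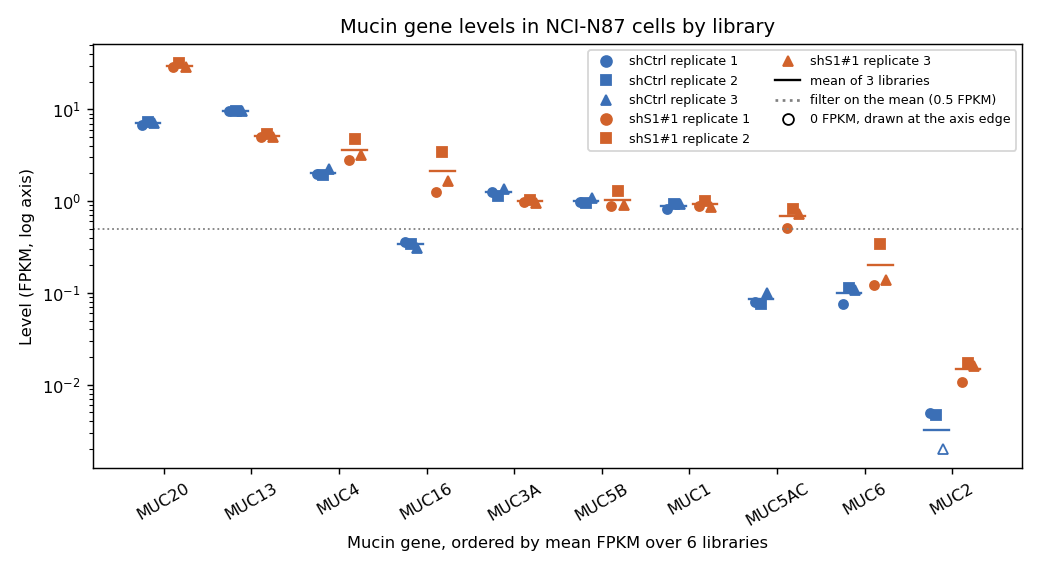
FPKM (y axis, log scale) of the 10 mucin genes (x axis, ordered by mean) in each of the 6 libraries, with shCtrl in blue, shS1#1 in orange, a bar at the mean of 3 libraries and a dotted line at the filter of 0.5 FPKM. MUC20 and MUC13 exchange the top place between the groups, and MUC16 and MUC5AC cross the filter line only in shS1#1 cells.

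MUC20, a small membrane mucin known to bind the receptor MET, was higher in all shS1#1 libraries. It lies on the plus strand of chromosome 3 (ENSG00000176945, GRCh38 chr3:195720882-195741123, 4249 bases of exon sequence), and its repeat unit is shown above. Its levels were 6.71, 7.29 and 7.16 FPKM in shCtrl cells and 28.8, 31.7 and 28.95 FPKM in shS1#1 cells, from 452 to 516 and 1790 to 1846 reads. Every shS1#1 library was thus above every shCtrl library, and the spread within each group was small. The mean rose from 7.05 ± 0.304 to 29.8 ± 1.64 FPKM (SD, n = 3 each), a ratio of 4.23 (log2 fold change 2.07, SE 0.07, 95% interval 1.89 to 2.24, limma adjusted p = 0.000165). The exact two-sided permutation test over 3 against 3 libraries gave p = 0.1, the smallest that this design allows, for every member whose ranges did not overlap. MUC20 passed in all 18 alternative fits.

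The reads of MUC20 could not be fully separated from its copies. Of the distinct 50-base words of its longest transcript, 43.5% also occurred in MUC20-OT1, a long noncoding RNA that overlaps it on the same strand (chr3:195658062-195739964), and 35.1% in MUC20P1, an unprocessed pseudogene 100649 bases away (chr3:195614947-195620233, plus strand). MUC20-OT1 was at 3.70 ± 0.0816 FPKM in shCtrl and 3.95 ± 0.290 FPKM in shS1#1 cells and did not pass the test (log2 fold change 0.09, limma adjusted p = 0.4996). MUC20P1 was at 2.03, 2.36 and 1.97 FPKM in shCtrl, against 9.01, 9.22 and 14.9 FPKM in shS1#1 libraries, again without overlap (log2 fold change 2.29, SE 0.21, limma adjusted p = 0.00156). It took 9.79 to 11.3% of the reads of the MUC20 and MUC20P1 pair in the shCtrl libraries, and 10.99, 10.3 and 16.9% in the shS1#1 libraries. Summed over the pair, their reads scaled to library size (CPM) went from 33.5 ± 1.52 to 145 ± 6.73, a ratio of 4.34. This sum was higher in shS1#1 cells but does not show how much of it was MUC20, and it leaves out MUC20-OT1.

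MUC16, the very large membrane mucin whose shed ectodomain is the CA125 antigen, lies on the minus strand of chromosome 19 (ENSG00000181143, chr19:8848844-8981342, 43830 bases of exon sequence). It was at 0.360, 0.345 and 0.307 FPKM in shCtrl cells, against 1.26, 3.44 and 1.67 FPKM in shS1#1 cells, from 208 to 252 and 809 to 2065 reads. The groups did not overlap, and shS1#1 replicate 2 was far above the other shS1#1 libraries. The mean rose from 0.337 ± 0.0271 to 2.13 ± 1.16 FPKM (log2 fold change 2.23, SE 0.37, 95% interval 1.34 to 3.11, limma adjusted p = 0.0125). The ratio of means was 6.30 with all libraries and 4.36 without shS1#1 replicate 2. The call was lost when any single shCtrl library was left out (adjusted p = 0.0526, 0.0539 and 0.0573), and held when the trend with gene length was removed (log2 fold change 1.97, adjusted p = 0.00249). Since its shCtrl mean was below the filter, MUC16 entered the test only through the shS1#1 libraries.

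MUC4, the membrane mucin that pairs with ERBB2, is the neighbour of MUC20, 5642 bases away on the opposite strand (ENSG00000145113, chr3:195746765-195812277, 21325 bases of exon sequence). Its levels were 1.97, 1.93 and 2.25 FPKM in shCtrl cells and 2.83, 4.77 and 3.17 FPKM in shS1#1 cells. All 3 shS1#1 libraries lay above the shCtrl range, with shS1#1 replicate 2 the highest. The means were 2.05 ± 0.176 and 3.59 ± 1.03 FPKM, and the difference narrowly missed the threshold (log2 fold change 0.75, SE 0.20, 95% interval 0.27 to 1.23, limma adjusted p = 0.0555). Without shS1#1 replicate 2 the ratio of means fell from 1.75 to 1.47, and with the smaller spread MUC4 passed (log2 fold change 0.53, adjusted p = 0.0165). It passed in 7 of the 18 alternative fits, whose adjusted p ranged from 0.0165 to 0.173, so its side of the threshold depends on the processing.

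MUC13 is a small membrane mucin of gastrointestinal epithelium (ENSG00000173702, chr3:124905442-124953819, minus strand, 3499 bases of exon sequence). Among the 10 members it had the highest mean FPKM in shCtrl cells. It was at 9.52, 9.64 and 9.53 FPKM in shCtrl cells, against 4.95, 5.41 and 4.94 FPKM in shS1#1 cells, from 515 to 562 and 253 to 259 reads. The libraries of each group lay within a narrow band, and the bands were far apart. The mean fell from 9.56 ± 0.0675 to 5.10 ± 0.266 FPKM, 46.7% lower (log2 fold change -0.89, SE 0.07, 95% interval -1.06 to -0.73, limma adjusted p = 0.000927). The call was kept in all 18 alternative fits. Its longest transcript holds no repeated 50-base window and shares none with another gene.

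MUC3A, a membrane mucin of the intestinal brush border (ENSG00000169894, chr7:100949555-100968346, plus strand), was at 1.27, 1.14 and 1.35 FPKM in shCtrl cells and 0.987, 1.04 and 0.955 FPKM in shS1#1 cells. The values did not overlap between groups, but the difference of 20.9% did not pass (log2 fold change -0.31, SE 0.14, 95% interval -0.65 to 0.03, limma adjusted p = 0.196) and was called in none of the 18 alternative fits, with adjusted p from 0.0685 to 0.436. The antisense gene AC254629.1, which overlaps it, had a mean of 0.0167 FPKM in shCtrl and 0.00893 FPKM in shS1#1 cells.

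MUC1, the membrane mucin found on most glandular epithelia (ENSG00000185499, chr1:155185824-155192916, minus strand), was at 0.816, 0.941 and 0.919 FPKM in shCtrl cells and 0.885, 1.007 and 0.869 FPKM in shS1#1 cells. These values were intermingled, and each rested on only 60 to 74 reads. Its log2 fold change was 0.04 (SE 0.17, limma adjusted p = 0.893), with a 95% interval from -0.36 to 0.44 that leaves room for a moderate change in either direction. AL713999.1, a gene model that overlaps MUC1 on the same strand, was at 0 in all libraries.

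**Figure D3:**
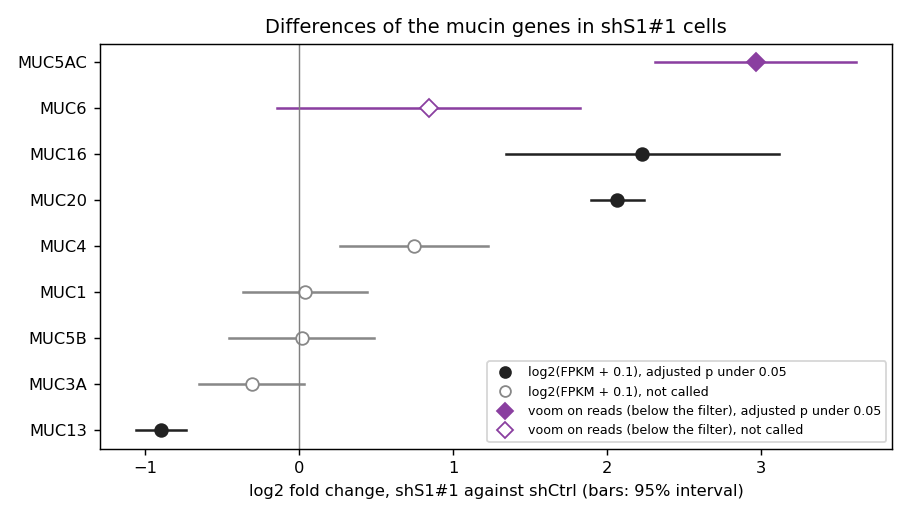
Log2 fold change of shS1#1 against shCtrl (x axis) with its 95% interval for 9 mucin genes (y axis), where circles stand for limma on log2(FPKM + 0.1), diamonds for limma voom on recovered reads of members below the filter, and filled symbols for adjusted p under 0.05. MUC20 and MUC16 lie near 2, MUC13 at -0.89, and the interval of MUC20 is the narrowest of the 3 higher filled symbols.

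The 4 gel-forming genes lie side by side on chromosome 11 in the order MUC6, MUC2, MUC5AC and MUC5B, with gaps of 38169, 47442 and 21928 bases, and all but MUC6 are on the plus strand. MUC5B (ENSG00000117983, chr11:1223066-1262172), the gel-forming mucin best known from airway and salivary glands, was the only one above the filter. It was at 0.966, 0.962 and 1.09 FPKM in shCtrl cells and 0.876, 1.304 and 0.915 FPKM in shS1#1 cells. The shS1#1 values lay on both sides of the shCtrl values, with shS1#1 replicate 2 the highest (log2 fold change 0.02, SE 0.20, 95% interval -0.46 to 0.49, limma adjusted p = 0.964). Leaving out each library in turn gave log2 fold changes from -0.15, without that library, to 0.11. MUC5B-AS1, which overlaps it, was at 0 in all libraries.

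MUC5AC (ENSG00000215182, chr11:1157953-1201138), the surface mucin of the normal stomach, was scarce in both groups but higher in shS1#1 cells. It was at 0.0795, 0.0757 and 0.1002 FPKM in shCtrl cells, from 22, 22 and 27 reads, against 0.514, 0.825 and 0.717 FPKM in shS1#1 cells, from 131, 197 and 183 reads. The groups were well separated, and the ratio of means was 8.05 with all libraries and 7.23 without shS1#1 replicate 2. Its mean over the 6 libraries was below the filter, so it has no value in the main test. Both alternative fits that kept it called it higher: limma voom on recovered reads gave a log2 fold change of 2.97 (SE 0.28, 95% interval 2.31 to 3.62, adjusted p = 0.000326), and log2(FPKM + 0.1) without the filter gave 2.07 (SE 0.30, adjusted p = 0.0181). The voom fit was added after the data were seen. Only 66 of its 50-base words occurred in MUC5B.

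MUC6 (ENSG00000184956, chr11:1012821-1036706) was at 0.0748, 0.114 and 0.108 FPKM in shCtrl cells, from 10, 16 and 14 reads, against 0.122, 0.338 and 0.138 FPKM in shS1#1 cells, from 15, 39 and 17 reads. The ranges did not overlap, but shS1#1 replicate 2 decided the size: the ratio of means was 2.02 with it and 1.31 without it. It was not called in either alternative fit that kept it (voom log2 fold change 0.84, SE 0.43, 95% interval -0.14 to 1.83, adjusted p = 0.202; without the filter adjusted p = 0.552). MUC2 (ENSG00000198788, chr11:1074875-1110511) had 1, 1 and 0 reads in the shCtrl libraries and 2, 3 and 3 reads in the shS1#1 libraries, so no difference was detectable at this depth.

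In order of level, the shCtrl cells had MUC13 first, followed by MUC20, MUC4, MUC3A, MUC5B, MUC1, MUC16, MUC6, MUC5AC and MUC2. FPKM is a value per length, so levels are set side by side between genes here. How reads in repeats or in sequence shared with other genes were counted is not given, which limits this order and the shares below. Of the 50-base windows of the longest transcript, 42.4% were repeated within MUC1 and 69.1% of those of MUC20 occurred in other genes, against 0 for MUC13 on both counts. In the shCtrl order the ranges of neighbours overlapped only for MUC6 and MUC5AC. In the shS1#1 cells the order was MUC20, MUC13, MUC4, MUC16, MUC5B, MUC3A, MUC1, MUC5AC, MUC6 and MUC2, and the ranges of neighbours overlapped from MUC4 through MUC1. MUC20 made up 31.6 ± 0.838% of the summed FPKM of the 10 genes in shCtrl cells and 67.3 ± 3.26% in shS1#1 cells, while MUC13 went from 42.8 ± 0.989% to 11.5 ± 0.594%. The share of MUC16 was 1.51 ± 0.155% and 4.64 ± 2.01%, and that of MUC5AC 0.381 ± 0.0526% and 1.53 ± 0.248%. In shS1#1 replicates 1, 2 and 3 the MUC16 share was 3.06, 6.90 and 3.95%, and that of MUC5AC 1.245, 1.65 and 1.69%. The summed level of the membrane members was 21.1 ± 0.456 FPKM in shCtrl and 42.6 ± 4.197 FPKM in shS1#1 cells, and that of the gel-forming members 1.19 ± 0.0895 and 1.93 ± 0.497 FPKM. Both sums were highest in shS1#1 replicate 2. By replicate, the shS1#1 membrane sums were 39.8, 47.4 and 40.6 FPKM, and the gel-forming sums 1.52, 2.48 and 1.79 FPKM. Gel-forming mucins thus stayed a small part of the total, at 5.33 ± 0.294% and 4.30 ± 0.649%.

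**Figure D4:**
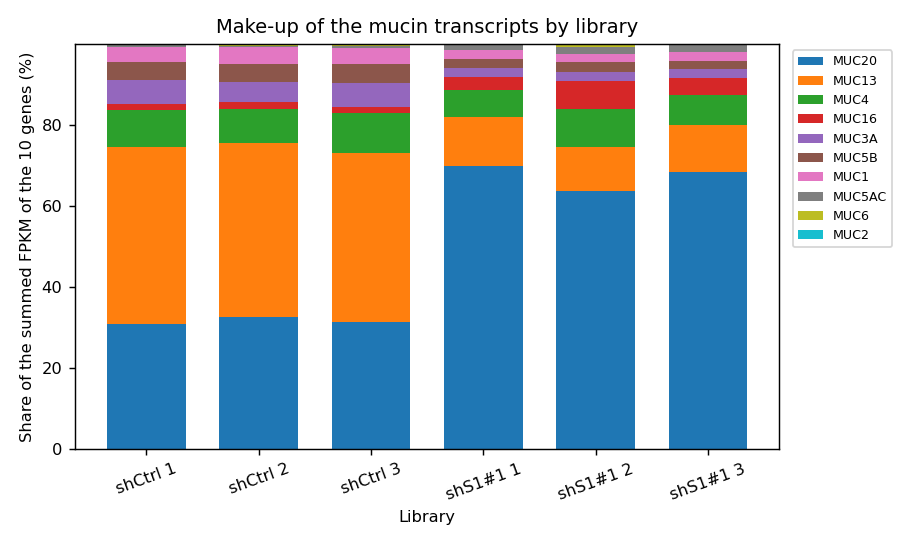
Share of the summed FPKM of the 10 mucin genes (y axis, percent) taken by each gene in each library (x axis). MUC13 and MUC20 take 42.8% and 31.6% on average in the shCtrl libraries and 11.5% and 67.3% in the shS1#1 libraries.

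The promoters of 6 members were in the RefSeq table used (GRCh38.p14, 250 bases before to 50 after a start), and those of MUC20, MUC5AC, MUC5B and MUC6 were not. Shown are the promoters of MUC13 and MUC16, the called members that had one in the table, and of MUC4, the neighbour of MUC20. All 3 are on the minus strand and written 5′ to 3′ along the gene, with motif matches in capitals.
MUC13: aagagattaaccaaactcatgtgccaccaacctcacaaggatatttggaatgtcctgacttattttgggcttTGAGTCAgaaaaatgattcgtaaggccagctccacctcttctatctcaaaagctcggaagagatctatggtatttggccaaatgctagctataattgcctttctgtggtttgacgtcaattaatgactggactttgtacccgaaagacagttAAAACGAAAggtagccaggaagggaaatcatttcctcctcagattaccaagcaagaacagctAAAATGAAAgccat
MUC4: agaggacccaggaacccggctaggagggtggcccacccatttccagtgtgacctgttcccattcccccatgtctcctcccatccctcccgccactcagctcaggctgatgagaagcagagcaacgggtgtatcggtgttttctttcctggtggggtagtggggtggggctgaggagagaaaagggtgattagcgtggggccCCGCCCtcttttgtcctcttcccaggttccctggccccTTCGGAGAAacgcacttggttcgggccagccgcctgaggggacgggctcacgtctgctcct
MUC16: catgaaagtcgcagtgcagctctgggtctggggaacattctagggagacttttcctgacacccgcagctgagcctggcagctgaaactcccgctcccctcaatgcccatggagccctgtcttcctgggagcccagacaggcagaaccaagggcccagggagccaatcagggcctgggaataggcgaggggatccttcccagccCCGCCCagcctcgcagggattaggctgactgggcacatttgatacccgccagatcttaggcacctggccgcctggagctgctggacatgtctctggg
The motifs searched, on both strands, were the TATA box TATAAA (11.5% of 35116 promoters), the SP1 GC box GGGCGG (45.0%), the STAT site TTCNNNGAA (7.66%), the interferon-stimulated response element core TTTCNNTTT (10.5%) and the AP-1 site TGANTCA (7.71%). The MUC13 window (chr3:124934702-124935001) held an AP-1 match at -178 and matches to the interferon-stimulated response element core at -26 and 37 from the start. The MUC4 window (chr3:195811880-195812179) held an SP1 GC box at -49 and a STAT match at -11. The MUC16 window (chr19:9065702-9066001) held an SP1 GC box at -47, and the window at a further MUC16 start held an AP-1 match at -136. The RefSeq start of MUC16 shown lies 84409 bases upstream of its 5′ end in GENCODE 29, and that of MUC13 19068 bases downstream of it, so which start these cells used is not known from gene-level values. A match of these letters is a description of the window and shows no binding.

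The counts in the lists of genes around the mucins are set beside all tested genes, of which 8.82% were higher and 5.17% lower. The lists were chosen with earlier results of these data known, so the comparison is a description and not a test. With so few genes in a list, 0 or 1 lower call is near that share of lower calls. Of 12 partners of mucins in mucus, 2 were tested and both were higher (median log2 fold change 0.90). AGR2, an endoplasmic reticulum protein disulfide isomerase needed for mucin folding, was at 6.10, 5.40 and 5.89 FPKM in shCtrl cells and 12.2, 9.89 and 11.99 FPKM in shS1#1 cells, with no overlap (log2 fold change 0.95, SE 0.10, limma adjusted p = 0.00290). AGR3, its neighbour in sequence, went from 4.54 ± 0.418 to 8.36 ± 1.72 FPKM (log2 fold change 0.85, SE 0.16, limma adjusted p = 0.0206) and lost its call in 4 of 18 alternative fits. The trefoil peptides TFF1 and TFF3 and the gastrokine GKN2 were at 0 in all libraries.

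Of 23 genes of mucin-type O-glycosylation, 17 were tested, 6 were higher (8.82% over all genes), 0 were lower (5.17% over all genes) and 11 were not called (median log2 fold change 0.27, with 14 above 0). GALNT5, GALNT3, GALNT10 and GALNT1 belong to the family that adds the first N-acetylgalactosamine to serine or threonine. GALNT5 was at 2.78, 3.48 and 3.10 FPKM in shCtrl cells and 9.71, 13.6 and 10.5 FPKM in shS1#1 cells, the largest log2 fold change among the tested genes of the list, without overlap (log2 fold change 1.81, SE 0.15, limma adjusted p = 0.00113). GALNT3 rose from 7.96 ± 0.470 to 13.0 ± 0.943 FPKM (log2 fold change 0.70, limma adjusted p = 0.00404). B3GNT3, which extends core O-glycans and had the highest level of the list, rose from 65.2 ± 1.70 to 121 ± 11.2 FPKM (log2 fold change 0.88, limma adjusted p = 0.00187). These 3 genes passed in all 18 alternative fits. GALNT10 (0.83), GALNT1 (0.44) and FUT2 (0.30), a fucosyltransferase that caps the chains, also passed but lost the call in 3, 5 and 7 of 18 alternative fits.

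Of 16 transcription factors and endoplasmic reticulum sensors known to act on mucin genes, 9 were tested, 2 were higher, 1 was lower and 6 were not called (median log2 fold change 0.10), beside 8.82% higher and 5.17% lower over all genes. GATA6, a regulator of gastric epithelium, was at 3.95, 3.73 and 4.07 FPKM in shCtrl cells and 6.47, 6.78 and 6.34 FPKM in shS1#1 cells, without overlap (log2 fold change 0.72, SE 0.07, limma adjusted p = 0.00206). FOXA1 was higher (6.43 ± 0.154 to 9.50 ± 1.28 FPKM, adjusted p = 0.0206) and FOXA3 lower (3.11 ± 0.148 to 2.25 ± 0.174 FPKM, adjusted p = 0.0275), with the call lost in 5 and 7 of 18 alternative fits. KLF4, a factor of differentiated epithelium with the highest mean of this list over the 6 libraries, was at 20.4 ± 0.614 and 21.8 ± 0.315 FPKM and did not pass (adjusted p = 0.309). CREB3L1, a membrane-bound transcription factor singled out after its values were seen, was below the filter at 0.0980 ± 0.00539 and 0.616 ± 0.0835 FPKM and was called in both alternative fits that kept it.

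Of 11 genes of mucin granule exocytosis, 10 were tested, 2 were higher, 1 was lower and 7 were not called (median log2 fold change 0.08), again beside 8.82% and 5.17% over all genes. MARCKS, which is needed for regulated mucin release, rose from 25.5 ± 0.551 to 38.8 ± 2.97 FPKM (log2 fold change 0.60, limma adjusted p = 0.00511) and passed in all 18 alternative fits. The priming factor UNC13D rose from 33.0 ± 1.2 to 42.0 ± 1.04 FPKM (adjusted p = 0.0160), and the calcium sensor SYT7 fell from 13.7 ± 0.746 to 9.62 ± 0.938 FPKM (adjusted p = 0.0166). Both lost the call in 5 of 18 alternative fits. The SNARE protein VAMP8, highest of the list, was at 62.0 ± 3.56 and 73.7 ± 23.4 FPKM (adjusted p = 0.628).

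Of 12 binding partners and sheddases of membrane mucins, 11 were tested, 4 were higher (8.82% over all genes), 0 were lower (5.17%) and 7 were not called (median log2 fold change 0.28, with 10 above 0). LGALS3, a galectin that binds mucin sugars, rose from 45.7 ± 1.04 to 69.3 ± 8.68 FPKM (log2 fold change 0.59, limma adjusted p = 0.0147). ERBB3 (0.50), the sialidase NEU1 (0.51) and the kinase SRC (0.33) passed with adjusted p = 0.0318, 0.0322 and 0.0408. The 4 calls were lost in 5 to 9 of the 18 alternative fits. ERBB2, the partner of MUC4 and the most abundant gene of the list, was at 1236 ± 33.6 and 1383 ± 115 FPKM and did not pass (log2 fold change 0.16, adjusted p = 0.336). Of 14 other mucin-named genes, 13 were in the table and 2 were tested, and neither CD164 (40.3 ± 1.91 and 44.6 ± 1.404 FPKM) nor OVGP1 passed. MUC7, MUC17 and EMCN were at 0 in all libraries.

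**Figure D5:**
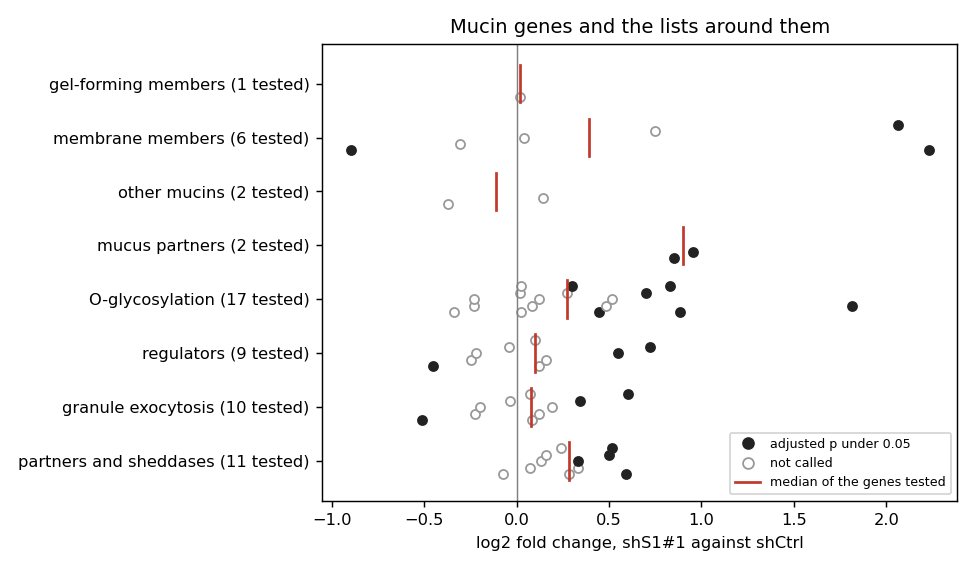
Log2 fold change of shS1#1 against shCtrl (x axis) for every tested gene of each list (y axis), with filled points for adjusted p under 0.05, open points for genes not called and a red line at the median. The medians lie between -0.11 for the other mucins and 0.90 for the 2 tested mucus partners.

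Over the 6 libraries, the genes most like MUC20 among the 7055 whose mean level reached 5 FPKM were PARP9 (Pearson r = 0.9999, 7.11 ± 0.159 and 15.1 ± 0.346 FPKM), ALPP (r = 0.9998, 27.3 ± 0.776 and 84.7 ± 3.18 FPKM) and SPNS2 (r = 0.9991, 14.9 ± 0.397 and 66.6 ± 3.85 FPKM). For MUC13 they were NPNT (r = 0.9983, 33.4 ± 0.476 and 26.3 ± 0.544 FPKM), PARM1 (r = 0.9976, 16.2 ± 0.229 and 11.7 ± 0.198 FPKM), itself a mucin-like membrane protein, and NSMF (r = 0.9971, 40.1 ± 0.232 and 26.7 ± 1.03 FPKM). These values describe 6 points that fall into 2 groups, so that any gene with an even difference between the groups scores high: 160 genes exceeded r = 0.99 with MUC20 and 25 with MUC13.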

How the data were processed

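Total RNA of 6 libraries, 3 shCtrl and 3 shS1#1, was sequenced by a company. HISAT2 2.0.5, featureCounts 1.5.0-p3, DESeq2 1.20.0 and build hg38 are named in the submitters' processing notes, and the authors deposited 1 table of gene FPKM values. The counting options, including strand, are not given in the sources used here. All 58735 genes had the coordinates of GENCODE 29. FPKM multiplied by gene length gave whole multiples of 1 step per library within 0.001, from which reads per gene were recovered.

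Groups came from the sample titles. The 15556 genes whose mean over all libraries reached 0.5 FPKM were tested with limma 3.58.1 in R 4.3.3 on log2(FPKM + 0.1), with a mean-variance trend and Benjamini-Hochberg adjustment over all of them. Fold changes are on that log2 scale, which understates those of low genes. The script was tested on simulated data with a dispersion of 0.01 for every gene. It recovered 156 of 190 genes given a log2 fold change of 1.5 up or down, and called 12 unchanged genes. No library with a trend by gene length was simulated, so the test does not cover the deviation of shS1#1 replicate 2. Alternatives were other pseudocounts (0.01, 1), filters, scalings, no trend, protein-coding genes only, voom on recovered reads, the replicate number as a block and leaving out each library, and, chosen after seeing the data, removal of a trend with gene length and voom on genes with a mean of at least 10 reads.

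Named were all members, overlapping genes, SCAMP1, up to 6 called genes and the highest gene of each list, and the 3 genes most like each of the 2 highest members. The members and lists were chosen with earlier results of these data known. Repeats and shared words were computed from GENCODE 29 transcripts and promoters taken from RefSeq.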

Additional observations from a re-analysis of the deposited data

How the results depend on the processing

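In all 18 alternative fits MUC20 and MUC13 kept their direction and call. Fits of the 7 tested members gave 115 values on the same side of the threshold, 7 that newly passed, all for MUC4, and 3 that no longer passed, all for MUC16 without 1 shCtrl library. Leaving out each library gave 1 to 3 members higher, and voom on genes with at least 10 reads gave 4 (MUC20, MUC16, MUC5AC and MUC4). List genes kept 255 calls and lost 69.

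Counts of calls moved more. Over all genes, leaving out each library gave 651 to 2296 higher against 1372 with all libraries, and 166 to 2078 lower against 805, with both maxima without shS1#1 replicate 2. Without that library fewer samples entered, yet more genes passed, and the cause was not tested. The replicate block gave 704 higher and 254 lower over all genes, and 8 higher and 0 lower in the lists. Same-numbered libraries had correlations of -0.035, 0.032 and 0.067 in their deviations, so the numbers are not shown to pair the samples. Genes lower were 514 with no filter and 1283 with voom on genes of at least 10 reads. A pseudocount of 1 left 248 genes past a 2-fold change against 492, and a larger pseudocount by arithmetic makes the log2 fold changes of low genes smaller. In the lists, 16 genes were higher and 2 lower, with 6 to 20 and 0 to 5 when a library was left out, and 1 lower without a filter or with the length trend removed. Apart from this arithmetic of the pseudocount, the cause was not tested in these cases. Depth limits MUC2, MUC6 and MUC1, with at most 3, 39 and 74 reads per library, and the number of libraries limits all tests.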
